A study of Mus musculus with 17 samples.

Results

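The 10 genes described here encode NF-kB subunits, their IkB-type inhibitors and genes that NF-kB induces and that feed back on it. They are the rows named Nfkb1, Nfkb2, Rela, Relb, Nfkbia, Nfkbib, Nfkbiz, Tnfaip3, Tnfaip2 and Birc3, out of 36172 genes in a table of RNA polymerase II (Pol II) ChIP-seq signal. The cells were primary C57Bl/6 mouse embryonic fibroblasts that had been infected with a lentivirus, kept in puromycin and harvested at day 3. One group carried a hairpin against Rpap1 (shRPAP1 #5), which encodes a Pol II-associated protein, and the control group a non-targeting hairpin (SCR). Both groups shared infection, selection and medium (DMEM with serum), and no inflammatory stimulus is named in the labels. Each library came from the chromatin of 3 lines combined before immunoprecipitation, with an antibody to total Pol II (RPB1 N-20) or to Pol II carrying a phosphate on serine 5 of the repeats in its C-terminal domain (Ser5P). There was 1 library for each antibody and hairpin, so "lower" and "higher" below compare libraries, no test between conditions was possible, and 1 hairpin stood for the depletion. The libraries were grouped by title, treatment and hairpin; for the shRPAP1 ChIP libraries the free-text description names SCR instead. The series holds 17 samples, of which 12 are RNA-seq samples and 5 are ChIP-seq samples. Neither the RNA-seq samples nor the input chromatin were analysed here.

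NF-kB is a family of dimeric transcription factors that is held in the cytoplasm of resting cells by IkB proteins. Receptors for TNF, IL-1 and microbial products activate the IkB kinase complex, IkB is degraded, and the freed dimers induce inflammatory and survival genes. Among the first genes induced are the pathway's own brakes, Nfkbia and Tnfaip3, so the pathway limits itself. In fibroblasts it drives chemokine, cytokine and adhesion molecule genes. Ser5P is most abundant on polymerase early in transcription, near promoters.

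The promoter sequences of 5 of the genes are shown because 4 of them carry letters of NF-kB sites beside their start, which the fifth, Birc3, lacks. They come from RefSeq on GRCm38.p6, which held a promoter for 7 of the 10 genes in the table used here, and run 5′ to 3′ from 250 bases before to 50 bases after the annotated start. Nfkb1, Relb and Nfkbiz had no entry. Capitals mark matches on either strand to the NF-kB consensus of 10 bases or to the shorter form GGNNTTTCC, where N is any base, and matches to both forms overlap in part.
Nfkbia (chr12:55492598-55492897, minus strand): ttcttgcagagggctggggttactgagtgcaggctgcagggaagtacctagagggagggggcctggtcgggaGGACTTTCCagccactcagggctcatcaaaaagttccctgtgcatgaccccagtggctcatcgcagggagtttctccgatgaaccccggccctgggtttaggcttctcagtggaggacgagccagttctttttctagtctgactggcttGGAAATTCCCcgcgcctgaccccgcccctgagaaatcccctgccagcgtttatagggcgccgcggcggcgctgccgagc
Tnfaip3 (chr10:19015361-19015660, minus strand, first of 2 starts): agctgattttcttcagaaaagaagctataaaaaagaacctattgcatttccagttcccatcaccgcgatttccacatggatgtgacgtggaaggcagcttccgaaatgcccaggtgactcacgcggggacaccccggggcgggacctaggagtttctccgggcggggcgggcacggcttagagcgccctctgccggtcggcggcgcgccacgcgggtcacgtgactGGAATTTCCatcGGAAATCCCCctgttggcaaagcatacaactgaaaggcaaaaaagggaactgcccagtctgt
Nfkb2 (chr19:46304487-46304786, plus strand, first of 3 starts): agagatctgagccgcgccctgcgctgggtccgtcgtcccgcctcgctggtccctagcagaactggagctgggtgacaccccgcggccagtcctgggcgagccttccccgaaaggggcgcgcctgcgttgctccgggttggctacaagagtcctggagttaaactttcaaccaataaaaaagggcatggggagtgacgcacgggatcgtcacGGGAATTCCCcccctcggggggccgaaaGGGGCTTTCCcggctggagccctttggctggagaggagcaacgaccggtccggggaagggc
Tnfaip2 (chr12:111442411-111442710, plus strand): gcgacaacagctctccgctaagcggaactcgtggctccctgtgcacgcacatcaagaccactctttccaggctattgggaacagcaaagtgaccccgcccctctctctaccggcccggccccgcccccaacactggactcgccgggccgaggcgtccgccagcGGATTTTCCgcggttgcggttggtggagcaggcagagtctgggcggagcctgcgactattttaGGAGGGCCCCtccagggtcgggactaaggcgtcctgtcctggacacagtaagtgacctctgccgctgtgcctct
Birc3 (chr9:7873121-7873420, minus strand): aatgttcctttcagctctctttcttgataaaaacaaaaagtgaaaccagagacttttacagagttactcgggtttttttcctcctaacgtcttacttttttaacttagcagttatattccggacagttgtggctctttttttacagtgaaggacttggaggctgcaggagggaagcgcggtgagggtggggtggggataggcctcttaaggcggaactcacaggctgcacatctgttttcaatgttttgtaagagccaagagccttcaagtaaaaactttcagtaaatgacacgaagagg

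The consensus was found in 5.8% of 32851 RefSeq promoters of the same length (1907), the shorter form in 5.82% (1913) and either form in 10.4% (3429). Nfkb2, Nfkbia, Tnfaip3 and Tnfaip2 held both forms. In Nfkbia the consensus lay at -29 to -20 from the start, with the shorter form on the same bases and again at -178 to -170. In Tnfaip3 the consensus lay at -12 to -3 and a shorter form at -24 to -16. The first start of Nfkb2 held a palindromic match at -39 to -30 and a further match at -11 to -2. Tnfaip2 held the consensus at -24 to -15 and the shorter form at -87 to -79. Neither form was in the windows of Rela, Nfkbib and Birc3, nor in that of the second start of Tnfaip3. A match is a description of letters, and says nothing of binding in these cells.

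**Figure D1:**
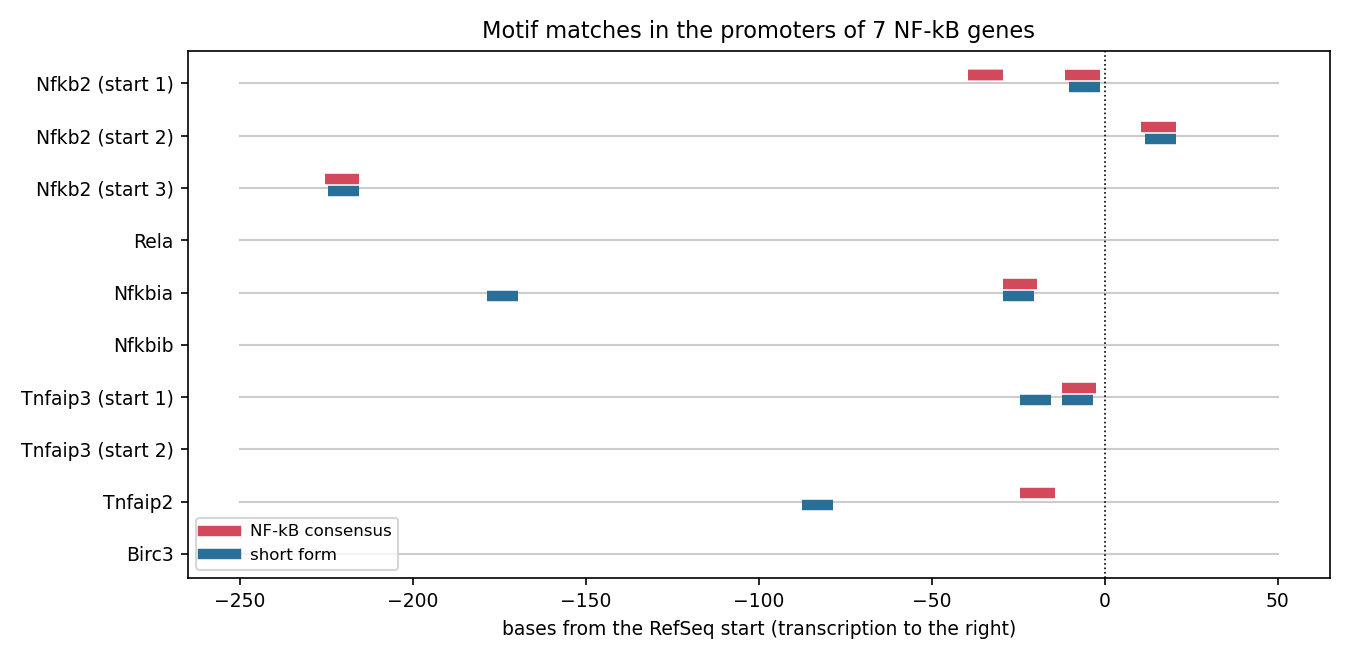
Matches to the NF-kB consensus (red) and to the shorter form (blue) by distance in bases from the RefSeq start, for each annotated start of the 7 genes with a promoter in the table. In it 4 genes hold matches, most of them within 40 bases of the start, and the rows of Rela, Nfkbib, Birc3 and the second start of Tnfaip3 are empty.

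Promoter and gene body are listed apart, as a signal that counts covered bases. A read of 40 bases was worth 28.85 at a promoter, and 3 reads gave 87.27, so single-gene promoter values rest on few reads. Over all genes, promoter coverage came to about 129638 reads (SCR) and 71277 reads (shRPAP1) for total Pol II, and to 290756 and 156207 reads for Ser5P. Values were compared as deposited, as the log2 ratio of shRPAP1 over SCR after adding 0.72 at promoters and 0.33 over gene bodies. Whether the libraries had been scaled to a common depth is not given in the sources used here, and how well each immunoprecipitation worked was not tested. A lower signal at a gene, a smaller library and a less efficient immunoprecipitation thus cannot be told apart from 1 ratio alone. For this reason each value is set beside the median of all measured genes, meaning those above the 95th percentile of 1573 olfactory and vomeronasal receptor genes in at least 1 of the 2 libraries compared. These receptor genes, taken as silent, moved the other way: their mean signal was 1.49 to 1.81 times higher in the shRPAP1 libraries. Intervals are 95% Clopper-Pearson intervals on read equivalents and cover counting error only. At the Rpap1 promoter the SCR and shRPAP1 values were 211 and 325 (total Pol II) and 886 and 541 (Ser5P), with counting intervals that include 0. Since hairpins act after transcription, these values do not check the depletion.

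All 10 genes passed the measured filter with both antibodies in both regions. At promoters 9 of 10 were at least 1.5-fold lower with total Pol II, where 69.2% of 14423 measured genes were, and none was higher, against 7.4%. With Ser5P 8 of 10 promoters were lower and 1 higher, against 68.5% and 11.7% of 17161. The Nfkb1 promoter with total Pol II and the Nfkbib promoter with both antibodies, however, held at most 3 reads in each library compared, and without them the counts were 7 of 8 and 8 of 9 lower. Over gene bodies 8 of 10 were lower with total Pol II, against 46.8% of 14243, and 9 of 10 with Ser5P, against 56.3% of 18307. No gene body was higher, against 8.73% and 8.54%. As deposited, the shares at promoters are thus nearer to the background than those over gene bodies, but this turns with the scaling. With the median of all ratios set to 1, bodies were near background (1 of 10 against 16%, and 2 of 10 against 16.7%). Promoter shares were then larger (5 of 10 against 30.6%, and 5 of 10 against 23.8%). The 5 with total Pol II include Nfkb1, at 2 and 0 reads. At that setting 1 (total Pol II) and 2 (Ser5P) of 10 promoters were higher, against 27.1% and 24.8%. Among gene bodies above 2 times the receptor percentile in both libraries, 65.9% of genes were lower with total Pol II and 76.6% with Ser5P, as were all 2 and 5 of the NF-kB genes among them. In pooled chromatin, less Pol II on a gene in every cell and loss from some of the cells cannot be told apart. In all, 7 genes (Nfkb1, Nfkb2, Rela, Relb, Nfkbia, Nfkbiz and Tnfaip3) were lower in all 4 comparisons, against 27.2% of the 9894 genes measured in all 4. Nfkb1 is among them only with its total Pol II promoter counted, which held 2 and 0 reads. The count of 7 holds for the values as deposited. With the median of all ratios set to 1, the only total Pol II body still lower was that of Nfkb2. Its total Pol II promoter ratio was then -0.37, short of 1.5-fold. The 9894 genes were not matched for level.

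**Figure D2:**
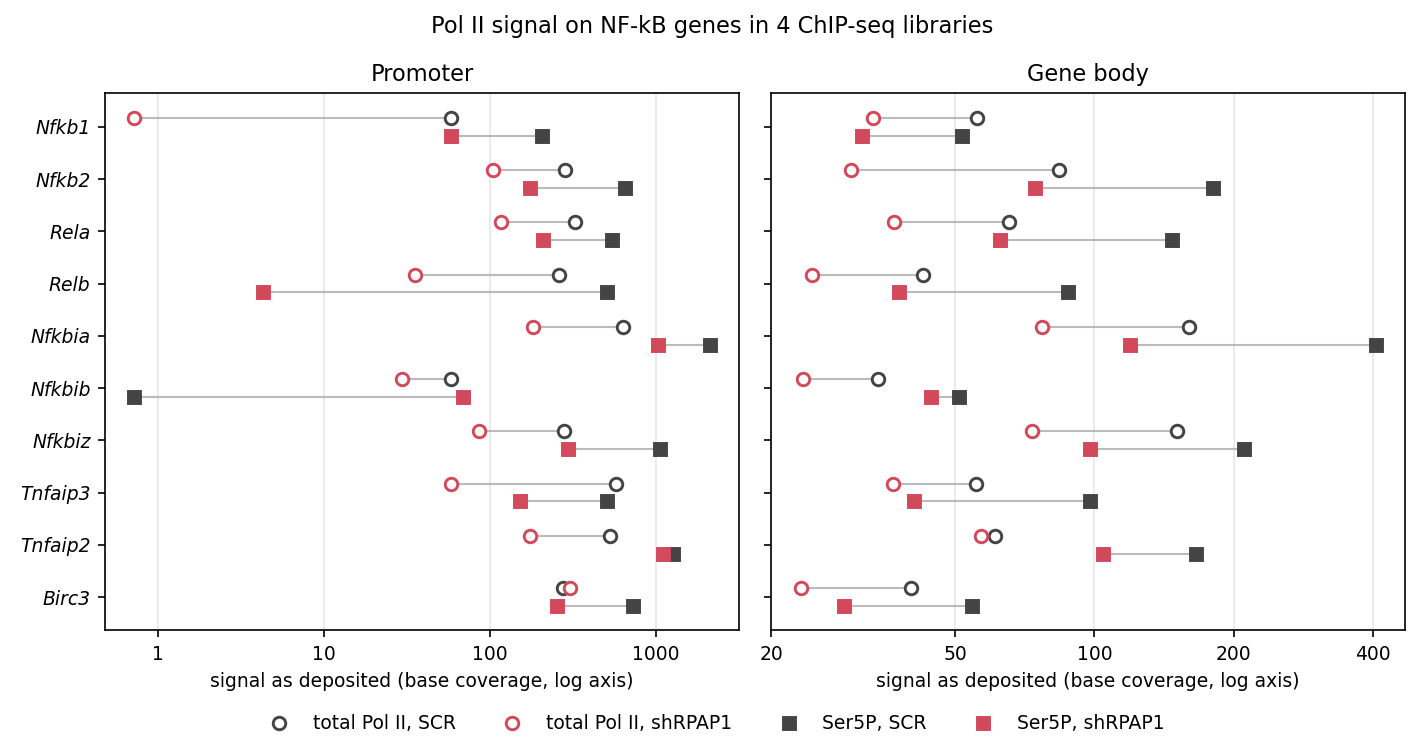
Deposited signal (log axis) of the promoter (left) and gene body (right) of each of the 10 genes, with 1 point per library: open circles for total Pol II, filled squares for Ser5P, grey for SCR and red for shRPAP1. Red lies left of grey in most rows, and the exceptions are the Birc3 promoter with total Pol II and the Nfkbib promoter with Ser5P, which rests on 0 and 2 reads.

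The subunits come first. Nfkb1 encodes p105, which is processed to the p50 subunit, and is by far the longest of the 10 genes, at 106893 bases on chromosome 3. Total Pol II over its body was 55.6 in SCR and 33.2 in shRPAP1, about 623 and 372 reads (log2 ratio -0.74, interval -0.93 to -0.56). Ser5P over the body was 51.6 and 31.4 (log2 ratio -0.71, interval -0.91 to -0.52). With so many reads the intervals are narrow. The Ser5P ratio sits close to the median of all measured genes, -0.68, while the total Pol II interval lies just below the median of -0.55. Its promoter was poorly covered: total Pol II was 58.4 and 0.72, or 2 and 0 reads, for which no fold is given, and Ser5P was 206 and 58.4, or 7 and 2 reads.

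Nfkb2 encodes p100, the precursor of the p52 subunit of the alternative pathway, and is itself induced by NF-kB. Its body signal was 83.7 and 29.7 with total Pol II (log2 ratio -1.48, interval -2.24 to -0.81) and 180.15 and 74.3 with Ser5P (log2 ratio -1.27, interval -1.72 to -0.83). The total Pol II ratio was the lowest of the 10 gene bodies and lay at the 9.2 percentile of measured genes. The promoter held 285 and 105 with total Pol II, about 10 and 4 reads (log2 ratio -1.44, interval -3.45 to 0.47), and 655 and 174 with Ser5P, about 23 and 6 reads (log2 ratio -1.91, interval -3.52 to -0.60). The gene has 3 RefSeq starts, 417 to 1610 bases inside the GENCODE gene span (chr19:46304320-46312385), and which of them the promoter value covers is not given.

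Rela encodes p65, the main activating subunit of the canonical pathway. Its total Pol II body signal was 65.35 and 36.8 (log2 ratio -0.82, interval -1.42 to -0.25), and its Ser5P body signal 147 and 62.5 (log2 ratio -1.23, interval -1.67 to -0.82). At the promoter total Pol II was 327 and 116, about 11 and 4 reads (log2 ratio -1.49, interval -3.57 to 0.30), and Ser5P 542 and 209, about 19 and 7 reads (log2 ratio -1.37, interval -2.93 to -0.13). Each of the 4 values was thus lower in the shRPAP1 library, and the counting interval lay below 0 for 3 of them but not for total Pol II at the promoter.

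Relb encodes the partner of p52 in the alternative pathway. Of the Ser5P promoters with more than 3 reads, this stood furthest apart: Ser5P was 506 in SCR and 4.33 in shRPAP1, about 18 reads against the edge of 1 read (log2 ratio -6.65, interval -9.55 to -1.51). Total Pol II was 260.35 and 35.3, about 9 reads and 1 read (log2 ratio -2.86, interval -8.62 to -0.32). The intervals are wide because the shRPAP1 value hangs on a single read. Its body showed no such gap, with 42.7 and 24.5 for total Pol II (log2 ratio -0.79, interval -1.29 to -0.33) and 87.4 and 37.8 for Ser5P (log2 ratio -1.20, interval -1.58 to -0.85).

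Among the inhibitors, Nfkbia encodes IkB-alpha, which NF-kB induces and which returns the dimers to the cytoplasm. Its Ser5P signal in SCR was the highest of the 10 genes over the body, beyond counting error. Ser5P over its body was 406 in SCR and 119.5 in shRPAP1, about 125 and 37 reads (log2 ratio -1.76, interval -2.33 to -1.22), the lowest Ser5P body ratio of the 10. Total Pol II over the body was 160.3 and 76.95 (log2 ratio -1.06, interval -1.80 to -0.30). At the promoter, whose sequence is given above, total Pol II was 633 and 182 (log2 ratio -1.79, interval -3.47 to -0.53). Ser5P at the promoter was 2115 and 1036, about 73 and 36 reads (log2 ratio -1.03, interval -1.64 to -0.43). That value is close to the all-gene median of -0.97, so the Ser5P promoter signal of Nfkbia differed about as much as that of a typical measured gene, while Ser5P over its body lay at the 7.8 percentile. The gene is 3238 bases long, so its body value covers a short stretch beyond the promoter.

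Nfkbib encodes IkB-beta, which is not known as an early target of NF-kB. Its body held 34.0 and 23.4 with total Pol II (log2 ratio -0.53, interval -1.39 to 0.29) and 51.0 and 44.25 with Ser5P (log2 ratio -0.20, interval -0.83 to 0.44). It was the only gene of the 10 whose body intervals included 0 with both antibodies. The promoter was at or under 3 reads in all 4 libraries, at 58.4 and 29.6 for total Pol II and 0.72 and 68.5 for Ser5P, so no fold is given. Relative to the all-gene median the body ratios were 0.01 and 0.48. These low signals depend on background. With the mean receptor signal subtracted, the body ratio was -1.23 with total Pol II, where all measured genes had a median of -0.93. With Ser5P it was -0.39, against -1.04. On the GENCODE model, all 330 bases of the promoter window inferred from the values lie inside Sirt2 on the opposite strand, and the RefSeq start lies 868 bases further in. ChIP signal carries no strand.

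Nfkbiz encodes IkB-zeta, a nuclear IkB protein that is induced by IL-1 and microbial signals and takes part in transcription of secondary response genes. Total Pol II over its body was 151 and 73.1, about 431 and 209 reads (log2 ratio -1.04, interval -1.29 to -0.80), and Ser5P 210.5 and 97.6, about 602 and 279 reads (log2 ratio -1.11, interval -1.32 to -0.90). At the promoter Ser5P was 1057 and 294 (log2 ratio -1.84, interval -3.06 to -0.85) and total Pol II 281 and 86.5, about 10 and 3 reads (log2 ratio -1.69, interval -4.24 to 0.22). Over the body both antibodies gave intervals wholly below the all-gene median, which of the 10 genes held only for Nfkb2 and Nfkbiz.

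Of the induced feedback genes, Tnfaip3 encodes A20, a ubiquitin-editing enzyme that shuts off signalling to the IkB kinase complex. Total Pol II at its promoter was 572 in SCR and 58.4 in shRPAP1, about 20 and 2 reads (log2 ratio -3.28, interval -6.46 to -1.28), and Ser5P was 511 and 151, about 18 and 5 reads (log2 ratio -1.75, interval -3.63 to -0.37). Over the body total Pol II was 55.5 and 36.7 (log2 ratio -0.59, interval -1.10 to -0.08), a value near the all-gene median. Ser5P over the body was 97.8 and 40.8 (log2 ratio -1.26, interval -1.71 to -0.82).

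Tnfaip2 is a TNF-induced gene whose product is linked to membrane protrusions. Its ratios were near 0 in 2 of the 4 comparisons: Ser5P at its promoter was 1273 and 1106, about 44 and 38 reads (log2 ratio -0.20, interval -0.88 to 0.45), and total Pol II over its body 60.9 and 56.8 (log2 ratio -0.10, interval -0.58 to 0.38). The Ser5P promoter interval lay wholly above the all-gene median, which held for no other of the 10 genes in any comparison. Total Pol II at the promoter was 531 and 174, about 18 and 6 reads (log2 ratio -1.61, interval -3.21 to -0.19). Ser5P over the body was 165 and 104 (log2 ratio -0.66, interval -0.99 to -0.35), at the all-gene median. Relative to that median its ratios were 0.76 (Ser5P promoter), 0.45 (total Pol II body) and 0.02 (Ser5P body). An antisense transcript, Gm40578, shares 4614 bases with the gene, and its part in the signal was not tested.

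Birc3 encodes cIAP2, a ubiquitin ligase that acts downstream of TNF receptors. Total Pol II at its promoter was 276 in SCR and 303 in shRPAP1, about 10 reads in each (log2 ratio 0.13, interval -1.42 to 1.42), the only ratio above 0 among promoters with more than 3 reads; with receptor genes set equal it was -0.64. Ser5P at the same promoter was 725 and 255, about 25 and 9 reads (log2 ratio -1.51, interval -2.76 to -0.33). Over the body total Pol II was 40.2 and 23.2 (log2 ratio -0.78, interval -1.28 to -0.31) and Ser5P 54.3 and 28.7 (log2 ratio -0.91, interval -1.35 to -0.50). The 2 antibodies therefore gave different signs at the promoter, but the intervals of the 2 ratios overlap. Birc2, the related neighbouring gene, named after its values were seen, held 809 and 145 (total Pol II) and 1567 and 612 (Ser5P) at its promoter. How reads shared by the paralogs were counted is not given.

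**Figure D3:**
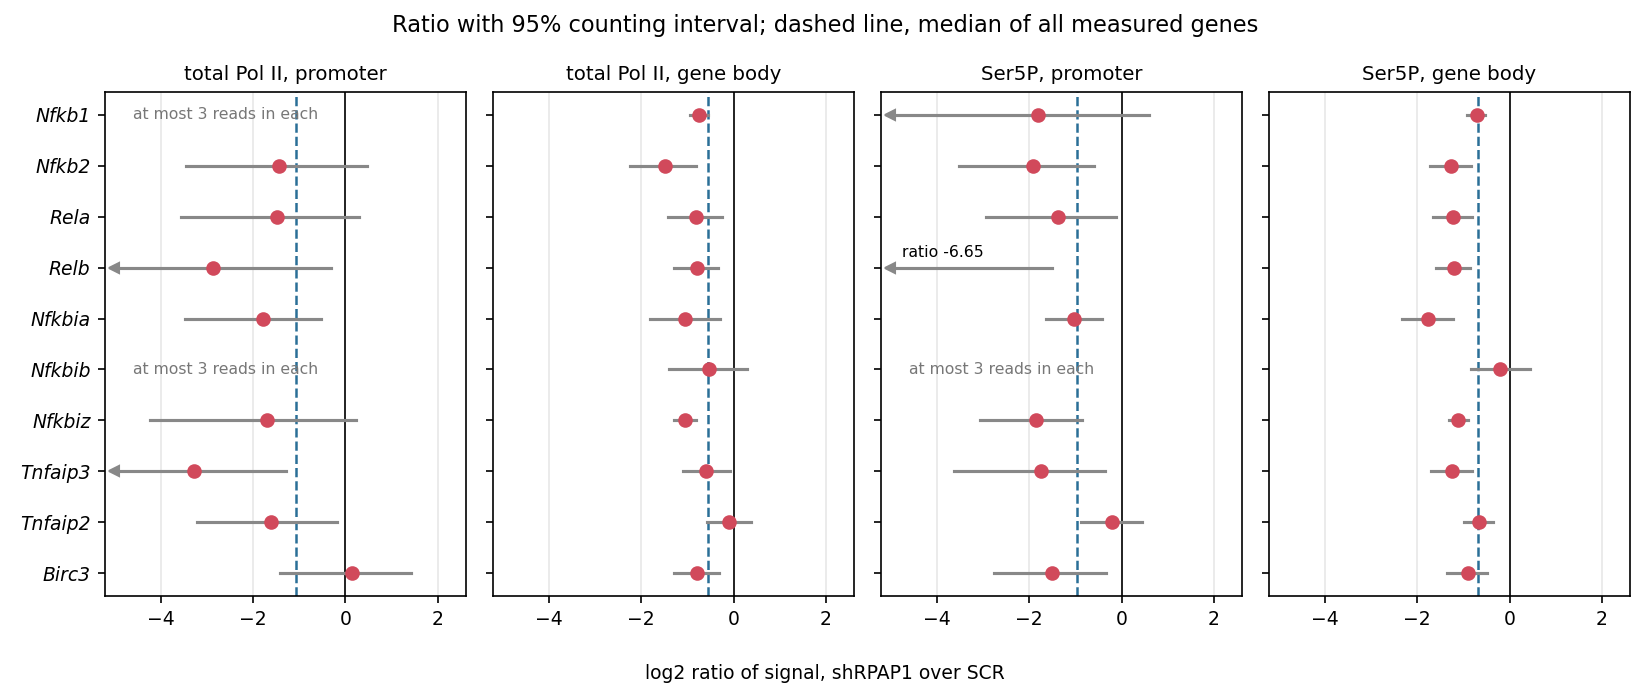
Log2 ratio of shRPAP1 over SCR for each gene with its 95% counting interval, in 4 panels by antibody and region; the dashed line is the median of all measured genes and the solid line is 0. Intervals are wide at promoters and narrow over gene bodies, where all 20 points lie below 0 and most lie left of the dashed line. Arrows mark intervals that run past -5.

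Summed over the 10 genes, gene bodies held about 1641 and 938 total Pol II reads in SCR and shRPAP1 (log2 ratio -0.81, interval -0.92 to -0.69) and 2370 and 1199 with Ser5P (log2 ratio -0.98, interval -1.08 to -0.88). Promoters held 114 and 37 with total Pol II (log2 ratio -1.62, interval -2.20 to -1.08) and 264 and 116 with Ser5P (log2 ratio -1.19, interval -1.51 to -0.87). The body sums weigh Nfkb1 and Nfkbiz most, with 623 and 431 SCR reads for total Pol II and 578 and 602 for Ser5P. Intervals of the sums cover counting error only, and not the spread between genes. That spread was -1.48 to -0.10 over total Pol II bodies and -1.76 to -0.20 over Ser5P bodies. The median ratio over the genes was -1.65 at promoters and -0.79 over bodies with total Pol II, where all measured genes had -1.07 and -0.55. For Ser5P it was -1.63 and -1.15, against -0.97 and -0.68. In each comparison 8 of the 10 genes lay below the all-gene median, counting the Nfkb1 total Pol II promoter at 2 and 0 reads. The level of a gene bears on this: over the 1717 and 3173 gene bodies above 2 times the receptor percentile in both libraries, the all-gene median was -0.79 with total Pol II and -0.96 with Ser5P. Of the 10 genes 2 and 5 passed this filter, with medians of -1.05 and -1.23. Of the 10 counting intervals, 4 at promoters and 8 over bodies lay below 0 with total Pol II, against 14.8% and 46.6% of genes. With Ser5P these were 7 and 9, against 27.7% and 53.3%.

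A stricter reading, added after the values were seen, asks which genes had a counting interval wholly below the all-gene median. Over bodies with Ser5P these were 6 of 10 (Nfkb2, Rela, Relb, Nfkbia, Nfkbiz and Tnfaip3), against 14.1% of 16734 genes. With total Pol II over bodies they were 3 (Nfkb1, Nfkb2 and Nfkbiz), against 12.7% of 12948. At promoters Tnfaip3 was the 1 gene with total Pol II, against 0.7%, and Relb the 1 gene with Ser5P, against 1.53%. Genes with more reads meet this rule more easily, and the 10 genes stood between the 71.1 and 98.5 percentile of all genes in SCR body signal.

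**Figure D4:**
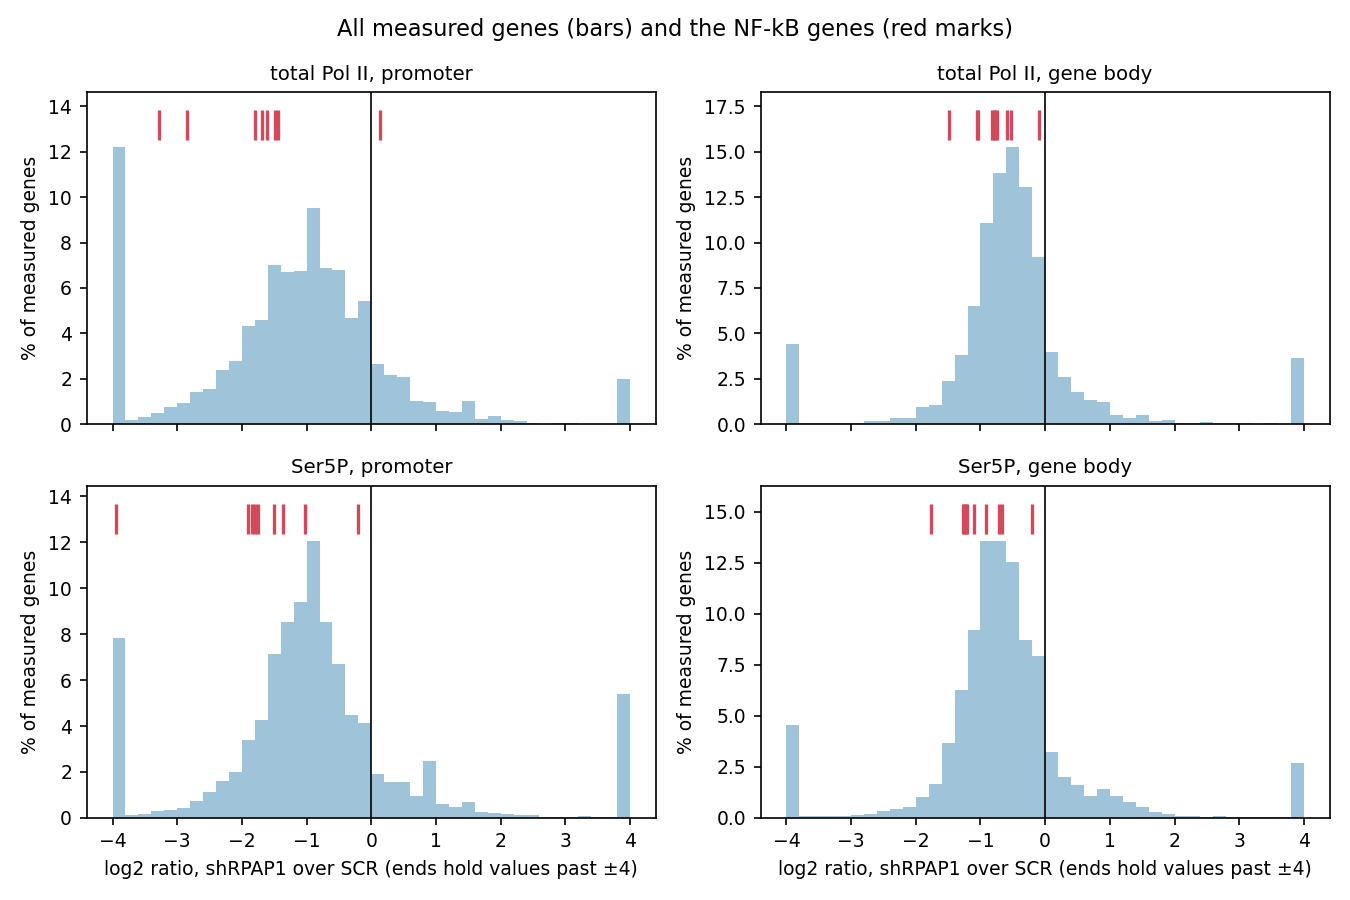
Distribution of the log2 ratio over all measured genes (bars, percent of genes per bin of 0.2) and the ratios of the NF-kB genes (red marks), by antibody and region. Most genes lie below 0 in every panel, and most of the red marks in each lie below the all-gene median. Birc3 (total Pol II promoter), Tnfaip2 (total Pol II body, Ser5P promoter) and Nfkbib (Ser5P body) lie in the upper part, and the Relb Ser5P promoter lies in the lower end bin. Promoters with at most 3 reads in each library are not marked.

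In SCR cells the genes differed in level, read here per length over gene bodies. Ser5P was 406 for Nfkbia, 210.5 for Nfkbiz, 180.15 for Nfkb2, 165 for Tnfaip2, 147 for Rela, 97.8 for Tnfaip3, 87.4 for Relb, 54.3 for Birc3, 51.6 for Nfkb1 and 51.0 for Nfkbib. Counting intervals of neighbours in this order overlapped except between Nfkbia and Nfkbiz, between Rela and Tnfaip3, and between Relb and Birc3. With total Pol II, Nfkbia (160.3) and Nfkbiz (151) again led and did not differ beyond counting error, and the step between Nfkbiz and Nfkb2 (83.7) was the only one without overlap. Ser5P relative to total Pol II over bodies was high in these genes, with a median log2 ratio of the signals of 0.92 in SCR against 0.30 for 13114 measured genes, and 0.63 against 0.12 in shRPAP1. It ranged in SCR from -0.11 for Nfkb1 to 1.44 for Tnfaip2. The 2 antibodies pull down with different efficiency, so only the comparison with other genes carries meaning. Those other genes were not matched for level. In SCR body signal the NF-kB genes ranged from the 71.1 percentile (Nfkbib, total Pol II) to the 98.5 percentile (Nfkbia, Ser5P). The part of level in the higher Ser5P share was not tested.

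The promoter signal relative to the body signal was also lower in the shRPAP1 library. With total Pol II the median log2 of promoter over body was 2.15 in SCR and 0.96 in shRPAP1, against 1.82 and 1.32 for 10458 genes measured in both regions. With Ser5P it was 2.35 and 1.66, against 2.61 and 2.40 for 14263 genes. The median difference between the libraries was -0.70 with total Pol II (all genes -0.50) and -0.55 with Ser5P (all genes -0.25). The total Pol II median includes Nfkb1 and Nfkbib, whose promoters held at most 3 reads in each library. Nfkb2 and Birc3 went the other way with total Pol II. Nfkbia and Tnfaip2 went the other way with Ser5P: the log2 of promoter over body was 2.38 and 3.11 for Nfkbia and 2.94 and 3.40 for Tnfaip2 in SCR and shRPAP1. The third gene to do so was Nfkbib, whose promoter held at most 3 reads. Background enters low body values more than promoter values. With the mean receptor signal subtracted, the median total Pol II ratio went from -1.65 to -1.79 at promoters and from -0.79 to -1.23 over bodies. With Ser5P it went from -1.63 to -1.69 and from -1.15 to -1.37. The part of background in the lower promoter share was not tested. No test over so few promoter reads is given.

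The rest of the pathway was described with 4 lists. Of 22 receptor and adaptor genes, 20 gene bodies were measured with Ser5P. Of these 13 were lower and 0 higher, against 56.3% and 8.54% of all measured genes. Their median was -0.68, the same as over all measured genes. Tnfrsf12a, the receptor for TWEAK, held 1427 and 565 in SCR and shRPAP1 (log2 ratio -1.34, interval -1.68 to -1.003), and Myd88, the adaptor of Toll-like and IL-1 receptors, 335 and 175 (log2 ratio -0.93, interval -1.31 to -0.57). Ltbr, the lymphotoxin receptor that signals to the alternative pathway, had the lowest ratio, at 133 and 31.3 (log2 ratio -2.08, interval -2.81 to -1.42). The highest was that of Tnfrsf11a (RANK), at 25.9 and 28.7, with an interval that includes 0. With total Pol II 7 of 18 bodies were lower, against 46.8% of all genes. At promoters 15 of 20 were lower with total Pol II, against 69.2%. With Ser5P 14 of 21 were lower, against 68.5%, and 3 higher, against 11.7%.

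Of the 18 kinase and ubiquitin genes, 15 were lower over the body with Ser5P, against 56.3% of all genes. With total Pol II 10 were lower, against 46.8%. None was higher with Ser5P or total Pol II, against 8.54% and 8.73%. Sharpin, a part of the linear ubiquitin ligase, held 175 and 94.5 with Ser5P (log2 ratio -0.89, interval -1.52 to -0.30) and Tab2, an adaptor of the kinase TAK1, 103 and 67.98 (log2 ratio -0.60, interval -0.80 to -0.40). Tab1 had the lowest ratio (71.95 and 30.7, log2 ratio -1.22) and Tab3 the highest (19.5 and 18.8, log2 ratio -0.05). At promoters 14 of 17 were lower with total Pol II (median -1.87; 69.2% of all genes lower) and 15 of 17 with Ser5P (median -1.67; 68.5%), which are the lowest promoter medians of the 4 lists.

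Other subunits and inhibitors numbered 20 genes, of which 15 were lower over the body with Ser5P, against 56.3% of all genes, and 6 of 18 with total Pol II, a smaller share than the 46.8% of all genes. Zc3h12a, the RNase regnase-1 that degrades inflammatory messages, held 191 and 54.8 with Ser5P (log2 ratio -1.79, interval -2.28 to -1.36), and Nkiras2, an inhibitor of IkB degradation, 191 and 69.7 (log2 ratio -1.45, interval -1.91 to -1.02). Nfkbie, which encodes IkB-epsilon, had the lowest ratio, at 67.9 and 18.7 (log2 ratio -1.84, interval -2.83 to -0.99). Its total Pol II body signal was 17.3 and 25.3, with an interval that includes 0. Nfkbid, a nuclear IkB gene, had the highest Ser5P ratio, at 45.1 and 49.7 (interval -0.60 to 0.87). At promoters 13 of 19 were lower and 1 higher with total Pol II, against 69.2% and 7.4% of all genes. With Ser5P 16 of 20 were lower and 3 higher, against 68.5% and 11.7%.

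Of 30 NF-kB target genes, 22 were measured over the body with Ser5P (median -0.97). Of these 17 were lower and 0 higher, against 56.3% and 8.54% of all genes. With total Pol II 12 of 20 were lower and 1 higher, against 46.8% and 8.73% (median of the targets -0.80). Ptgs2, which encodes cyclooxygenase-2, carried the most signal: Ser5P was 2265 and 656 (log2 ratio -1.79, interval -1.93 to -1.65) and total Pol II 1476 and 450 (log2 ratio -1.71, interval -1.89 to -1.55). Ier3, an immediate early survival gene, held 1217 and 444 with Ser5P (log2 ratio -1.45, interval -1.98 to -0.94). Ccl2, a chemokine for monocytes, had the lowest Ser5P ratio, at 763 and 84.45, about 127 and 14 reads (log2 ratio -3.17, interval -4.09 to -2.38). The highest ratio was that of Cxcl10, an interferon-induced chemokine, at 103 in each library. At promoters 15 of 19 targets were lower with total Pol II, against 69.2%. With Ser5P 18 of 22 were lower and 3 higher, against 68.5% and 11.7%. The Ser5P body ratio of Nfkbia (-1.76) is thus near that of Ptgs2 and smaller in size than that of Ccl2.

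The 5 other genes whose 4 ratios lay closest to the medians of the 10 genes, by Euclidean distance among 8160 genes measured in all 4 comparisons, were Zfp689 (distance 0.080), Ggnbp2 (0.140), Ctdsp2 (0.162), Polr3c (0.165) and Ddx6 (0.169). None of them belongs to the lists above. Genes with the consensus in a RefSeq promoter had median ratios close to those without it: -0.73 for 800 genes against -0.70 for 9435 over bodies with Ser5P, and -1.16 for 741 against -1.09 for 8419 at promoters with total Pol II.

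The fibroblast label was checked with marker genes. In SCR 8 of 11 fibroblast markers were above the receptor percentile over the body with total Pol II and 10 of 11 with Ser5P, led by Fn1 at 1405 and 1954, whereas 0 of 5 epithelial, 0 of 5 endothelial and 0 of 4 pluripotent markers were. Of 8 macrophage and leukocyte markers, cells in which NF-kB genes are also active, 4 and 7 were above it in SCR and 3 in each shRPAP1 library. From SCR to shRPAP1 their summed body signal went from 480 to 271 (total Pol II) and from 772 to 332 (Ser5P), while that of the fibroblast markers went from 4432.5 to 1797 and from 7223 to 2559. Most of it was Cd68 (493 and 146 with Ser5P) and Fcer1g (127 and 59.9). The other 6 lay nearer to the receptor percentiles of 17.6 (SCR) and 31.0 (shRPAP1) with Ser5P. Csf1r held 50.5 and 23.6, Tyrobp 27.4 and 8.26, Spi1 22.5 and 12.7, Itgam 19.4 and 24.5, and Emr1 20.5 and 40.75. Ptprc, at 11.4 and 16.4, was below the percentile in both libraries. Their part in the NF-kB values was not tested.

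The size of every ratio depends on how the libraries are scaled, and nothing in the files fixes a common scale. When the median of all ratios was set to 1 for each comparison, 5 promoters with each antibody were at least 1.5-fold lower. The all-gene shares were 30.6% with total Pol II and 23.8% with Ser5P. Over bodies the lower genes were Nfkb2 alone with total Pol II and 2 genes with Ser5P, against 16% and 16.7%. The median of the 10 genes was below 0 in all 4 comparisons, at -0.58 and -0.24 (total Pol II promoter and body) and -0.66 and -0.47 (Ser5P). The setting moves every gene of a comparison by the same amount, so a sign that changes restates that the ratio lay above the all-gene median.

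**Figure D5:**
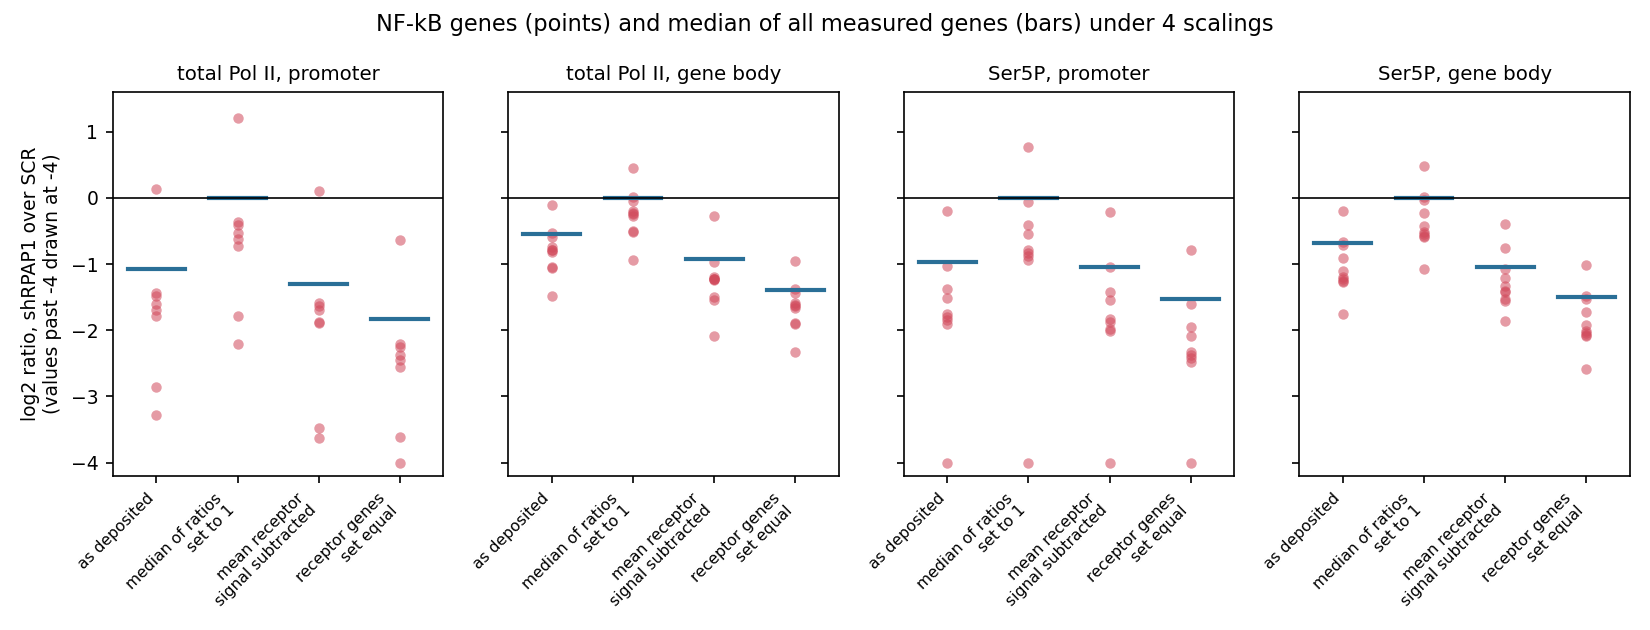
Log2 ratios of the NF-kB genes (points) and the median of all measured genes (blue bars) with the values as deposited and under 3 other scalings, by antibody and region; promoters with at most 3 reads in each library are left out. The points move with the bars, most points stay below them under each scaling, and once the all-gene median is at 0 the points scatter around and below 0.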

How the data were processed

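Values are the deposited signal (base coverage as read here) of each gene's promoter and body in 4 ChIP-seq libraries. The authors made them, per the submitters' processing notes, on GRCm38 (mm10) with MACS2 2.0.10.20130712, bedtools 2.23.0, SAMtools 0.1.16 and FastQC. How reads were aligned and filtered, which window was counted, and whether input or depth was corrected for is not given in the sources used here. Each of the 144688 promoter values was a whole multiple of 0.7212 (within 0.006), a step shared by the libraries, with commonest values of 1, 41 and 81 steps, as 0, 1 and 2 reads of 40 bases would give. Body values of short genes came out as whole reads in 59.55% of 21312 cases with 300 bases taken off the GENCODE M21 gene span. At other offsets the share was 15.6% to 17.4%. The promoter window of 330 bases is an inference from a separate fit, the best body constant (238) over the promoter step. The file header names RefSeq genes without models, so body read equivalents, made with GENCODE spans (names matched: 90.4%), are approximate, in the same proportion for each library of a gene.

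The table had 36230 rows, less 58 exact repeats. All 8 value columns were mapped to libraries and 0 were left unmapped. Members and lists were chosen with earlier results of these data known. The genes named were the 10 members, from each list the 2 with most SCR Ser5P body signal and those with the lowest and highest Ser5P body ratio, the 5 nearest genes, and Rpap1. The main settings were the 5th percentile as pseudocount and a fold of 1.5. Alternatives were 2 scalings, background subtraction, pseudocounts, filters and the fold. Python 3.11.15, NumPy 2.4.6, SciPy 1.17.1 and pandas 2.3.3 were used, and the steps were tested on simulated data.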

Additional observations from a re-analysis of the deposited data

How the results depend on the processing

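No paired analysis was possible because each antibody and hairpin had 1 library. Setting the median of ratios to 1 moved the number of the 10 genes at least 1.5-fold lower from 9 to 5 (total Pol II promoter), 8 to 1 (total Pol II body), 8 to 5 (Ser5P promoter) and 9 to 2 (Ser5P body), and the medians were -0.58, -0.24 and -0.47 for total Pol II promoter, total Pol II body and Ser5P body. That setting adds a constant to every gene of a comparison, and 6 single ratios above the all-gene median passed 0: Nfkbib at the total Pol II promoter (0.10, at most 3 reads) and over both bodies (0.01 and 0.48), and Tnfaip2 at the Ser5P promoter (0.76) and over both bodies (0.45 and 0.020). With receptor genes set equal the medians were -1.63 (total Pol II body), -2.20 (Ser5P promoter) and -1.97 (Ser5P body), and with the mean receptor signal subtracted -1.23 and -1.37 (bodies with total Pol II and Ser5P). The stricter filter left 3, 2 and 5 genes measured (total Pol II promoter and body, Ser5P body). Of these 2, 2 and 5 were lower, against 60.1%, 65.9% and 76.6% of all genes. At 2-fold, 3 of 10 total Pol II bodies counted as lower, against 20.6% of all measured genes. These counts fall because fewer genes are measured or the limit is higher. Where the median or the receptor genes were set equal, the shifts of the medians follow from the rescaling itself. Subtracting the receptor signal moved the genes unequally. Total Pol II body ratios went from -0.53 to -1.23 for Nfkbib and from -0.10 to -0.27 for Tnfaip2. Pseudocounts 10 times smaller or larger left all 40 single-gene ratios within their counting intervals. Depth limits promoters most, with 2 to 22 SCR reads per gene for total Pol II.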
